A study of Mus musculus with 2 samples.

Results

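The ATF4 genes, the transcripts of the integrated stress response and of amino acid supply, were examined in mouse embryonic stem (ES) cells with and without the germ cell protein CTCFL. The list holds 39 genes chosen by name and function, with earlier results of these data known. A gene was counted as measured when a probe set of the array carried its symbol alone. This gave 36 genes of 19938 named genes on the array. Pycr1 and Gdf15 had no such probe set, and Aars was read only by a probe set that it shares with Exosc6. Each of the 36 genes had 1 probe set.

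Expression was measured by the authors on 2 Affymetrix Mouse Gene 1.0 ST arrays, which read a transcript with probes spread over its exons. The induced array held RNA of ES cells that had received doxycycline over 3 days and were sorted by green fluorescent protein (GFP), the tag of the transgenic CTCFL_V5_GFP protein. The non-induced array held RNA of the same transgenic ES cells without doxycycline and without sorting. Both cultures grew in medium with leukemia inhibitory factor (LIF) on gelatin. The line was made by stable transfection of ROSA26-rtTA ES cells with a CTCFL-V5-GFP construct under a tetracycline-responsive element, and whether 1 clone or several entered the arrays is not given in the sources used here. With 1 array per group there was no replicate, so that no test was made and each difference describes these arrays only. Doxycycline, sorting and CTCFL changed together and cannot be told apart.

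Cells answer amino acid shortage, misfolded protein in the endoplasmic reticulum, lack of heme and viral RNA with kinases that phosphorylate the initiation factor eIF2. General translation then drops, while the mRNA of the transcription factor ATF4 is translated better, and ATF4 with C/EBP partners switches on genes for amino acid synthesis, amino acid import, tRNA charging and feedback. ATF4 is thus controlled to a large part by translation, which arrays do not measure.

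Values are log2 signals, and a difference is the induced minus the non-induced value. A gene was called higher or lower when its values differed by log2 0.58 (1.49-fold) or more and at least 1 of them reached the floor, set at the median over all genes and both arrays (6.36). Ctcfl itself was at 9.44 in the induced and at 5.99 in the non-induced array, in the direction of the labels, although endogenous and transgenic transcripts are read together. All 15 ES cell markers examined were above the floor, with differences of -0.46 to 0.61, and 9 were below 0. Of the 15, 1 was called higher, Tcl1 (0.61), and 0 lower, against 5.31% and 8.45% of all genes at or above the floor. Of 19 measured fibroblast markers 16 were above 0 (median 0.41), and their summed linear signal was 5100 in the induced and 4496 in the non-induced array. Among the 12 that reached the floor 4 were called higher, Ccn1 (0.94), Loxl1 (0.85), Thbs1 (0.81) and Col5a1 (0.58), and 0 lower, where 5.31% and 8.45% of all genes with a value that high were. Loxl1 (6.42 against 5.56) and Thbs1 (6.57 against 5.76) reached the floor in the induced array only, so their calls rest on the array where they were high. Col3a1, which was not called, also reached it in the induced array only. Postn, Lum, Dcn, Acta2, Tagln, Pdgfra and Pdgfrb stayed below the floor in both arrays. The 3 fibroblast markers below 0 were Vim (9.71 against 9.96, -0.25), Ccn2 (8.87 against 9.08, -0.22) and Dcn (-0.28). The lists of endoderm, mesoderm, neural and trophoblast markers had medians of 0.25, 0.12, 0.21 and 0.05. In this order 7 of 12, 4 of 9, 4 of 9 and 7 of 10 measured genes reached the floor, so these medians rest partly on values below it. Of those at the floor 2, 1, 0 and 2 were called higher and 1, 0, 1 and 1 lower, against the same shares of all genes. Among the genes called higher, Hnf4a, Tbx6, Esx1 and Krt7 reached the floor in the induced array only. Among those called lower, Foxa2 and Gata3 reached it in the non-induced array only. The calls of these genes thus rest on the array where they were high. The part of other cell types in the values below was not tested, and in bulk RNA fewer cells of a type and less RNA per cell cannot be told apart.

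The ATF4 genes differed little between the arrays. Of the 36 genes 33 reached the floor in both arrays, Vldlr did so in the induced array only, and Slc7a11 and Fgf21 in neither, so that 34 could be called. Of these 34 genes 0 were higher by the size, where 5.31% of the 10697 genes at or above the floor were, and 1, Stc2, was lower, where 8.45% were. At log2 1 the counts were 0 higher and 0 lower, with 0.477% and 1.79% of all genes. At log2 0.32, or 1.25-fold, 6 were higher and 4 lower, against 16.8% higher and 21.8% lower among all genes, so that the share of the ATF4 genes was close to the background upwards and below it downwards. Their median difference was 0.11, against 0.01 over all 19938 genes and -0.03 over those at or above the floor. After centring it was 0.01, against -0.09 over all genes and -0.13 over those at or above the floor. A second quantile normalization gave 0.18, against 0.02 and 0.03. The differences were above 0 for 22 of the 36 genes (61.1%), for 51.4% of all genes and for 46.6% of those at or above the floor. This majority was 19 of 36 once the arrays were centred on their medians, a step that put the median of all genes below 0 as well. It was 25 of 36 after a second quantile normalization or removal of the trend with signal level. The widest differences were -0.64 for Stc2 and 0.52 for Cebpb. The middle 95% of genes at or above the floor ran from -0.89 to 0.72, and 0 of the 34 genes lay outside it.

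**Figure D1:**
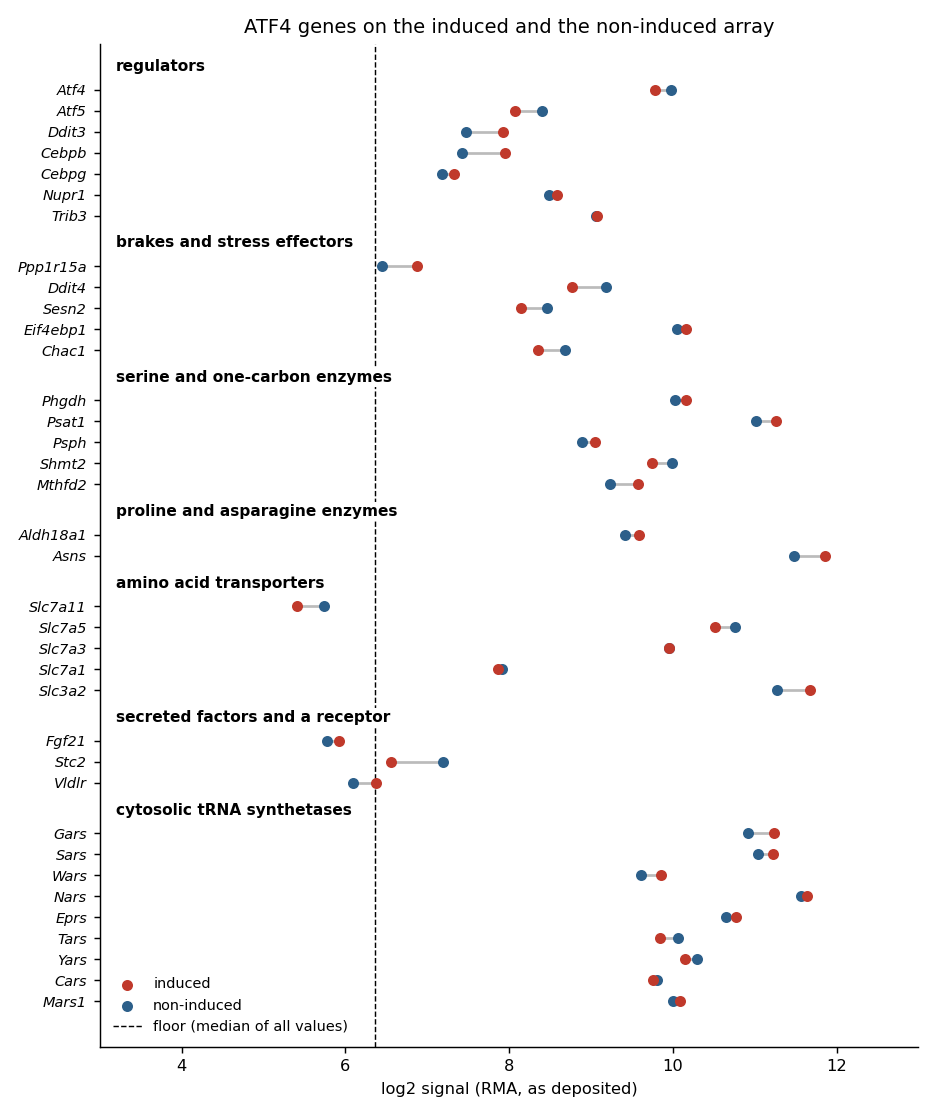
Log2 signal (x axis) of the 36 measured ATF4 genes, grouped by role, with 1 red point for the induced and 1 blue point for the non-induced array, joined by a line; the dashed line marks the floor (6.36). The points of a gene lie close together throughout, and the widest gaps are those of Stc2 (6.56 against 7.19) and Cebpb (7.94 against 7.42).

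**Figure D2:**
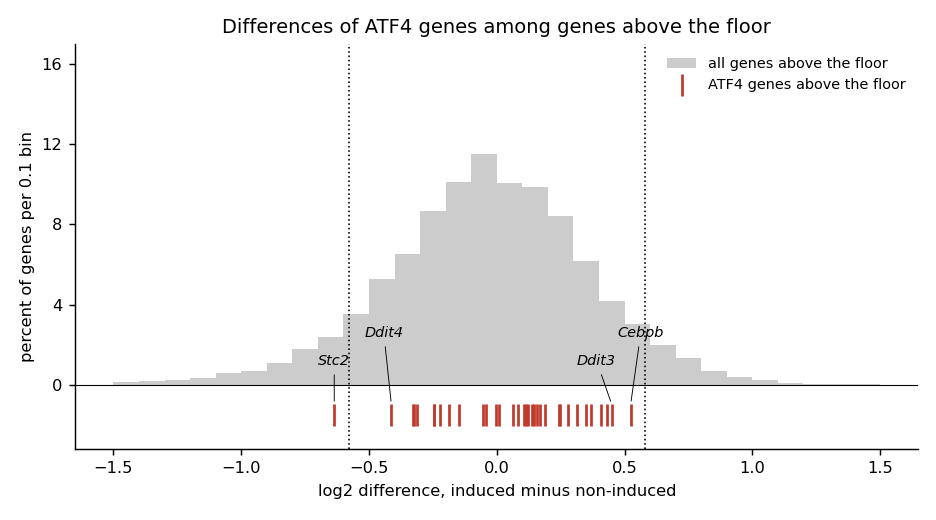
Log2 differences, induced minus non-induced (x axis), of the 10697 genes at or above the floor as a histogram in percent per bin of 0.1, with the 34 ATF4 genes among them as red ticks below; dotted lines mark log2 0.58 on both sides. Only the tick of Stc2 (-0.64) lies past a dotted line, and Cebpb (0.52) is the nearest on the other side.

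The transcription factors at the head of the response were split. Atf4, whose protein drives the other genes, was at 9.79 in the induced and 9.97 in the non-induced array (-0.19). Atf5, a related factor that is also translated better when eIF2 is phosphorylated, was at 8.08 against 8.40 (-0.32). Both differences were below 0 and short of the size. Cebpb, a C/EBP factor that dimerizes with ATF4, was at 7.94 against 7.42, and its difference of 0.52 lay at percentile 92.9 of the genes at or above the floor. Ddit3, which encodes the stress factor CHOP, was at 7.92 against 7.47, a difference of 0.45 at percentile 90.2. These were the widest upward differences of the 36 genes, and that of Cebpb passed the size only after the trend with level was removed (0.60) or the arrays were quantile normalized again (0.61). Cebpg, the C/EBP factor that pairs with ATF4 at amino acid response genes, was at 7.33 against 7.18 (0.15), and Nupr1, a small chromatin protein of the stress response, at 8.59 against 8.48 (0.11). Trib3, the pseudokinase that binds ATF4 and CHOP and is among the most responsive targets of both, was level at 9.07 against 9.06 (0.01, and -0.09 after centring).

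Genes that restrain growth or end the response went both ways. Ppp1r15a encodes GADD34, which directs a phosphatase to eIF2 and so restores translation, and it was at 6.88 in the induced and 6.44 in the non-induced array (0.43). Ddit4 and Sesn2, which both restrain the growth kinase mTORC1, were below 0 and short of the size, Ddit4 at 8.77 against 9.18 (-0.41) and Sesn2 at 8.15 against 8.46 (-0.31). Chac1, which degrades glutathione and is a target of ATF4 and CHOP, was at 8.36 against 8.69 (-0.33). Eif4ebp1, the repressor of cap-dependent translation 4E-BP1, was at 10.16 against 10.05 (0.11). In this group only Ppp1r15a and Eif4ebp1 were above 0, and the median of the 5 genes was -0.31.

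Enzymes of amino acid synthesis mostly had differences above 0, all short of the size. The serine pathway starts with Phgdh, at 10.16 in the induced and 10.02 in the non-induced array (0.14), goes on with Psat1, at 11.27 against 11.02 (0.25), and ends with Psph, at 9.05 against 8.89 (0.16). The array annotation also lists Gm6756 with Phgdh on another probe set, and whether the probe set used here also reads that gene was not tested. The mitochondrial enzymes that take the carbon of serine into folates were split, with Mthfd2 at 9.58 against 9.23 (0.35) and Shmt2 at 9.74 against 9.99 (-0.25). Aldh18a1, which makes the precursor of proline, was at 9.58 against 9.41 (0.17). Asns, the asparagine synthetase and a classic ATF4 target, was at 11.85 against 11.49, and its difference of 0.37 was the widest of the enzymes, at percentile 86.4. Of these 7 enzymes 6 were above 0, each by less than log2 0.58, and this held under each of the 5 scaling and summary settings tried.

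Among amino acid transporters the difference of the shared heavy chain was above 0 and those of its listed light chains below 0, all short of the size. Slc3a2, the heavy chain that brings several light chains to the cell surface, was at 11.68 in the induced and 11.27 in the non-induced array (0.41). Slc7a5, the light chain for large neutral amino acids, was at 10.52 against 10.76 (-0.25), and Slc7a11, the light chain that imports cystine, was at 5.40 against 5.74 (-0.34), below the floor in both arrays. The cationic amino acid transporters act without the heavy chain. Of these Slc7a3 was at 9.95 in both arrays (0.00) and Slc7a1 at 7.86 against 7.91 (-0.05), and both had the other sign after quantile normalization or removal of the trend.

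Secreted factors and the lipoprotein receptor of the list were near the floor. Stc2, a secreted glycoprotein induced by stress of the endoplasmic reticulum, was at 6.56 in the induced and 7.19 in the non-induced array. This difference of -0.64, or 1.55-fold, lay at percentile 6.84 and was -0.50 once 32 units were added to each linear signal. Vldlr, a lipoprotein receptor raised by ATF4 in stressed cells, was at 6.38 against 6.10 (0.28). Fgf21, a hormone gene of the stressed liver and muscle, was at 5.93 against 5.77 (0.16), below the floor in both arrays.

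The cytosolic tRNA synthetases, which load amino acids onto tRNA, stayed within log2 0.32. Gars, whose gene gives both the cytosolic and the mitochondrial glycine enzyme, was at 11.24 in the induced and 10.92 in the non-induced array, the widest difference of the group (0.31). Wars was at 9.86 against 9.61 (0.24) and Sars at 11.22 against 11.04 (0.19), the enzymes for tryptophan and serine. Eprs, a fused enzyme for glutamate and proline, was at 10.78 against 10.65 (0.12). Mars1 was at 10.08 against 10.00 (0.08) and Nars at 11.64 against 11.57 (0.07), the enzymes for methionine and asparagine, and both were below 0 after centring. Tars was at 9.84 against 10.06 (-0.22), Yars at 10.15 against 10.30 (-0.15) and Cars at 9.76 against 9.80 (-0.04). Of the 9 genes 6 were above 0, with a median of 0.08.

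The promoters were then searched for the letters of the element that ATF4 and C/EBP factors share, to see what the genes have in common beside their names. RefSeq windows from 250 bases before to 50 bases after the start of transcription (GRCm38.p6) were found for 33 of the 39 genes. Eif4ebp1, Slc7a5, Slc7a3, Wars, Nars and Cars were not matched. The core of the C/EBP-ATF response element, TGATGNAA on either strand, was present in 12 of the 33 genes (36.4%) and in 4.51% of all 27025 genes with a window. These were Aars, Asns, Chac1, Fgf21, Gars, Nupr1, Pycr1, Slc7a11, Tars, Trib3, Vldlr and Yars. The list was drawn up from known ATF4 targets, some of which are known through this element, so that the share describes the list. The cAMP response element TGACGTCA, a palindrome, was found in Ppp1r15a alone, and in 2.03% of all genes.

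The promoter of Asns is shown in full because this gene had the widest upward difference of those with the element. It lies at chr6:7693160-7693459 on the minus strand of GRCm38.p6 and is written 5′ to 3′ in the direction of transcription, with the element in capitals.
Asns: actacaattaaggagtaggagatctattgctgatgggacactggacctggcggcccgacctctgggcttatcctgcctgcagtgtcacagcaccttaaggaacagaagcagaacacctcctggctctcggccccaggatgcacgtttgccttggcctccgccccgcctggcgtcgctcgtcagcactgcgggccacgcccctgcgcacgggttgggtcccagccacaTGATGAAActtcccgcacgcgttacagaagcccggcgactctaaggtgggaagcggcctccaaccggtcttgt

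Stretches of 40 bases around the match are given for genes on both sides of 0, each turned so that the element reads forward and with the element in capitals. Gars lies at chr6:55037955-55037994 (minus strand), Trib3 at chr2:152344023-152344062 (plus), Tars at chr15:11399650-11399689 (plus), Chac1 at chr2:119351033-119351072 (minus) and the first of the pair of matches in Slc7a11 at chr3:50443656-50443695 (minus). The stretch of Ppp1r15a, at chr7:45526257-45526296 (minus), shows the cAMP response element in capitals.
Gars: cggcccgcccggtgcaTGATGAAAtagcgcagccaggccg
Trib3: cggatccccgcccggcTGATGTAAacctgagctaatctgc
Tars: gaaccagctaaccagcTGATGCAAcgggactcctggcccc
Chac1: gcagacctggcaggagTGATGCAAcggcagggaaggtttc
Slc7a11: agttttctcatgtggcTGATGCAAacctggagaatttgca
Ppp1r15a: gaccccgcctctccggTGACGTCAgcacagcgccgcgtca

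The differences of genes with the element overlapped those of genes without it. The 10 measured genes with the element had differences from -0.34 for Slc7a11 to 0.37 for Asns, with a median of 0.06, and 6 were above 0. The 20 measured genes with a window but without the element ran from -0.64 to 0.52, with a median of 0.14, and 13 were above 0. A match of letters is not a site of binding, and elements outside the window were not looked for.

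**Figure D3:**
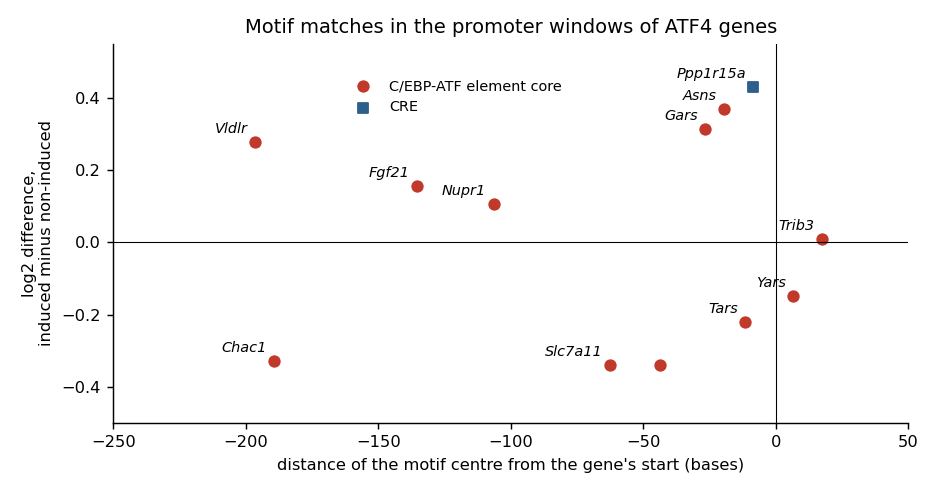
Log2 difference, induced minus non-induced (y axis), of ATF4 genes against the distance in bases of the motif centre from the start of transcription (x axis), with red points for the C/EBP-ATF element core and a blue square for the cAMP response element (CRE). Slc7a11 has a match at each of 2 positions. The points lie on both sides of 0, from Slc7a11 (-0.34) to Ppp1r15a (0.43), over the whole window.

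Other genes of the pathway were taken from lists of the same kind. Of 20 further ATF4 targets 11 were above 0, with a median of 0.13 (0.03 after centring and 0.24 after the second quantile normalization). Centring put the median over all genes at -0.09, and the second quantile normalization put it at 0.02. Of the 19 at or above the floor 1 was higher by the size, Sqstm1, an autophagy receptor, at 10.17 in the induced and 9.47 in the non-induced array (0.70), and 1 was lower, the glycine transporter gene Slc6a9 (-0.62), which is near the 5.31% and 8.45% of all genes. The stress factor gene Atf3 was at 7.90 against 7.34 (0.56), and Sesn3, another sestrin, at 6.74 against 6.23 (0.51). Targets of ATF6 and XBP1, the other arms of the endoplasmic reticulum stress response, had a median of 0.14 (0.04 after centring and 0.26 after quantile normalization) with 12 of 20 above 0 and 0 past the size, against the same shares of all genes. The widest were Sdf2l1 (0.577), Dnajb9 (-0.57), Manf (0.48) and Calr (0.39), which encode a luminal cochaperone, another cochaperone, a secreted protective factor and a calcium-binding chaperone. The medians of these lists were close to that of the ATF4 genes.

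The genes upstream of ATF4 mostly had differences below 0. Of 13 measured genes for eIF2 kinases, eIF2 and eIF2B subunits and related factors 10 were below 0, with a median of -0.27 that was -0.18 after lowess and -0.14 after the second quantile normalization. Among all genes at or above the floor 46.6% were above 0. Eif2ak4, which encodes GCN2, the kinase that senses uncharged tRNA, was at 6.65 in the induced and 7.41 in the non-induced array, and with -0.76 it was the 1 gene of the 13 past the size, which is near the 8.45% of all genes that were lower. Eif2ak2, the kinase PKR that senses double-stranded RNA, was at 6.68 against 7.18 (-0.50), and Eif2ak1, the kinase that senses heme, at 7.45 against 7.85 (-0.41). Eif2ak3, the kinase PERK of the endoplasmic reticulum, was at 6.54 against 6.43 (0.11). Of the 4 kinase genes 3 were thus below 0 and 1 past the size. Ppp1r15b, the constitutive partner of the eIF2 phosphatase, was at 8.25 against 8.71 (-0.47), where its inducible relative Ppp1r15a was at 0.43. Eif2s2, the beta subunit of eIF2, was at 11.13 against 11.57 (-0.44).

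**Figure D4:**
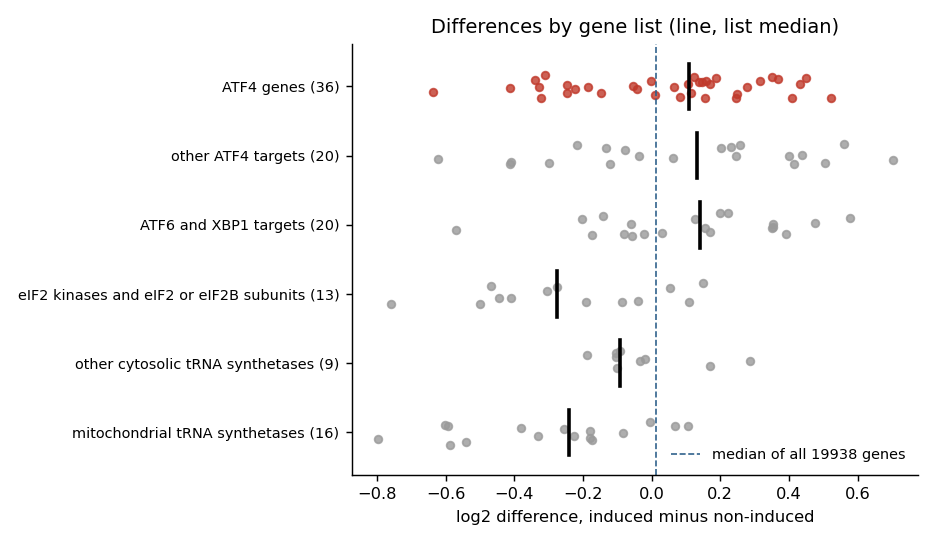
Log2 difference, induced minus non-induced (x axis), of each measured gene of the ATF4 genes (red) and of 5 other lists (grey), with the number of genes in brackets; black lines are list medians, a dashed line marks the median over 19938 genes (0.01) and the vertical spread of points within a list has no meaning. The ATF4 genes have a median of 0.11, and the lists of eIF2 genes (-0.27) and mitochondrial tRNA synthetases (-0.24) have the lowest medians.

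Synthetases outside the list were set beside its 9 measured ones. The 9 other cytosolic synthetases had a median of -0.09, with 2 above 0, and ran from -0.19 for Vars, the valine enzyme, to 0.29 for Kars, the lysine enzyme of both cytosol and mitochondria, with Farsb at 0.17 and Hars at -0.10. The sign of this median changed with the second quantile normalization (0.045). The nuclear genes for synthetases of mitochondria, which serve translation inside the organelle, were below 0 for 14 of 16. Among all genes at or above the floor 46.6% were above 0. The median of the mitochondrial list was -0.24 and stayed between -0.20 and -0.34 in the alternatives. Of the 15 at or above the floor 4 were lower by the size and 0 higher, where 8.45% and 5.31% of all genes were. Yars2 was at 7.91 against 8.71 (-0.80), Pars2 at 6.23 against 6.83 (-0.60), Sars2 at 7.41 against 8.004 (-0.59) and Rars2 at 8.35 against 8.93 (-0.59). Pars2 reached the floor in the non-induced array only. Of the 4 genes only Yars2 lay well past the size, and the count was not repeated under the other scalings. At log2 1 the counts were 0 lower and 0 higher, where 1.79% and 0.477% of all genes were. At log2 0.32 they were 7 lower and 0 higher, where 21.8% and 16.8% were. No replicates exist with which the lists could be compared by a test.

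For 12 amino acids a measured cytosolic enzyme gene was paired with the measured mitochondrial one. Phenylalanine, whose cytosolic enzyme is built from the products of Farsa and Farsb, was left out. Glutamate and proline, which share the fused cytosolic enzyme Eprs (0.12), were also left out, with Ears2 at -0.23 and Pars2 at -0.60. The cytosolic gene had the higher difference in 10 of the 12 pairs, and the median gap over all 12 pairs was 0.19. The widest gaps were those of Sars at 0.19 against Sars2 at -0.59, Yars at -0.15 against Yars2 at -0.80, and Rars at -0.03 against Rars2 at -0.59. The exceptions were Tars at -0.22 against Tars2 at 0.07, and Vars at -0.19 against Vars2 at -0.01. This pairing was made after the values were seen.

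**Figure D5:**
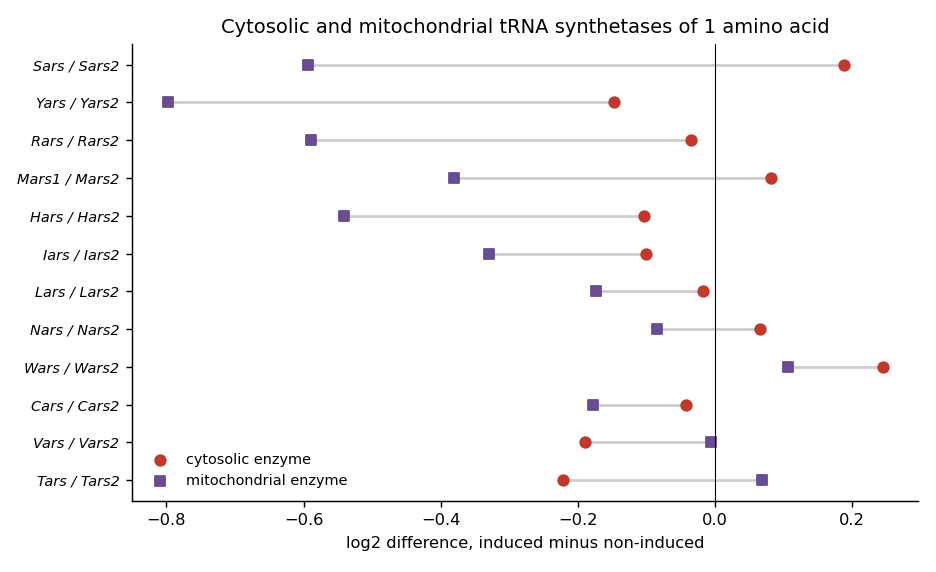
Log2 difference, induced minus non-induced (x axis), of the cytosolic (red point) and the mitochondrial (purple square) tRNA synthetase gene for each of 12 amino acids, ordered by the gap between them. The red point lies to the right in 10 of 12 pairs, most widely for Sars and Sars2 (0.19 against -0.59), and to the left for Vars and for Tars.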

How the data were processed

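Total RNA (300 ng per array) was labelled by the authors and run on Mouse Gene 1.0 ST arrays (Affymetrix), 1 induced and 1 non-induced. The authors deposited log2 values of all probe sets after RMA (background correction, quantile normalization, summary of probes), which compresses differences of dim genes. That they are log2 was read from their range, 1.36 to 14.5. Neither a software version nor a build of the array annotation is given in the sources used here. Arrays give no counting error, and their number limits precision.

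Of 35557 probe sets 21789 carried 1 gene symbol in the platform annotation. The 1621 with several symbols and the 12147 without a symbol were left out of gene results. Current symbols came through the gene identifiers of 21698 of these, matched to the RefSeq annotation of GRCm38.p6. The probe set with the highest mean stood for a gene. No p-values were computed. Named were all ATF4 genes, up to 4 genes with the widest difference of every other pathway list, and Ctcfl. Eif2ak1, Eif2ak3, the cell type marker genes, Farsa, Farsb, Ears2 and further synthetases in the pairing were named outside this rule. Members and lists were chosen with earlier results of these data known.

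Alternatives were centring, lowess (fraction 0.3), quantile normalization, the mean of probe sets, an offset of 32, sizes of log2 1 and 0.32, the floor at the 75th percentile or none, genes at or above the floor, and means. The stricter letters TGATGCAA were added after the data were seen. The steps were tested on simulated data. Analyses used Python 3.11.15, numpy 2.4.6, pandas 2.3.3, statsmodels 0.14.6 and matplotlib 3.10.9.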

Additional observations from a re-analysis of the deposited data

Results flagged for a closer look

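Signal was present in 2 probe sets that entered no gene result because the array annotation gives each of them a pair of genes, 1 of which is an ATF4 gene. Probe set 10558439, annotated to Gm6756 and Phgdh, was at 10.40 in the induced and 10.12 in the non-induced array (0.28). Probe set 10575550, annotated to Aars and Exosc6, was at 9.66 against 9.59 (0.0706). Which gene of a pair gave the signal was not tested.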

How the results depend on the processing

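The median of the ATF4 genes stayed above 0 in all 7 alternatives, from 0.01 after centring to 0.18 after the second quantile normalization. Over all genes the medians in these settings were -0.09 and 0.02. The 180 values of single genes under 5 alternatives each moved by no more than log2 0.25. The sign turned in at least 1 of the 5 for Trib3, Slc7a3, Slc7a1, Nars, Cars and Mars1. The count of ATF4 genes higher by the size was 1, Cebpb, after lowess and 1 after quantile normalization, in place of 0, and 6 at log2 0.32. The count lower was 0 with the offset, 0 at log2 1, 0 with the floor at the 75th percentile and 4 at log2 0.32, in place of 1. After the second quantile normalization the medians moved to 0.24 for the other ATF4 targets, -0.14 for the eIF2 list, 0.26 for the ATF6 and XBP1 targets and 0.045 for the other cytosolic synthetases. The cause of these moves was not tested. Of all genes called at log2 0.58, 38.6% were higher in the main setting (568 higher, 904 lower), 19.9% after centring (326 and 1312) and 26.1% with the offset (223 and 630). With the letters TGATGCAA 9 genes held the element in place of 12, against 1.03% of all genes. No paired analysis was possible because each group had 1 array.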
